A study of Mus musculus with 15 samples.

Results

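The cathepsins are the proteases of the lysosome, and their messenger RNA was followed in mouse microglia after 1 dose of an antibody to the receptor TREM2. The group was taken by symbol as 10 genes (Ctsa, Ctsb, Ctsc, Ctsd, Ctsf, Ctsh, Ctsl, Ctso, Ctss and Ctsz) of the 32372 genes in the deposited matrix. All 10 were found and all 10 passed the filter on low counts, as did 14260 genes in all. The data are single-cell RNA sequencing libraries of 15 mice in 5 groups of 3, with 102043 cells and 707518630 unique molecular identifiers (UMIs, each 1 captured RNA molecule). All mice were male C57BL/6J hTfR KI animals aged 3.5 months, in which the human transferrin receptor apical domain was knocked into the mouse locus. The groups received a single dose of 10 mg/kg of the control antibody ATV:RSV and were sampled at day 1, or received ATV:4D9 and were sampled at day 1, 7, 14 or 28. ATV:4D9 is a mouse TREM2 antibody whose Fc part also binds the human transferrin receptor, which carries it into the brain. Every comparison with control uses the same 3 ATV:RSV mice, and the later days have no control of the same day.

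Cathepsins are made as inactive precursors that travel to endosomes and lysosomes, largely on mannose 6-phosphate receptors, and become active there at acid pH. Most are papain-like cysteine proteases (B, C, F, H, L, O, S and Z), whereas cathepsin D is an aspartic protease and cathepsin A a serine carboxypeptidase that also shields other lysosomal enzymes. In microglia they break down engulfed material, and cathepsin S further trims the invariant chain of class II molecules. Cystatins and related inhibitors hold the cysteine cathepsins in check.

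Cells were taken by CD45 beads from cortex and hippocampus and labelled microglia. At least 3 of 10 microglia markers were present in 99.9% of the cells, and at least 3 of 8 border macrophage markers in 0.885%. Each mouse gave 5667 to 7596 cells and 32341960 to 70307384 UMIs. ATV:4D9 day 1 differed from ATV:RSV in several ways. Its median UMIs per cell was 8513 ± 424 (mean ± SD, n = 3 mice) against 5317 ± 396 in ATV:RSV, and 23.9% ± 3.95 of its cells held a UMI of the cycling genes Mki67 or Top2a, against 0.499% ± 0.16. Summed microglia markers took 15643 to 17408 CPM (counts scaled to a fixed library total) there against 22943 to 24358 in ATV:RSV, and summed border macrophage markers 131 to 139 against 196 to 205, with no marker of either list at 0. Mitochondrial genes took a median of 4.30% ± 0.293 of a cell's UMIs at day 1 and 3.25% ± 0.134 in ATV:RSV, and 1.81% to 2.00% of cells held 3 or more markers of another cell type, against 0.925% to 1.52%. Summed monocyte markers (13.9 to 18.0 against 4.51 to 11.5 CPM) and T cell markers (0.341 to 0.770 against 0.0757 to 0.323 CPM) were higher, and those of B cells, endothelium, astrocytes, oligodendrocytes and neurons were lower. The T cell sums are near the floor. Over all mice, 2 cells held 3 or more monocyte markers and 4 cells held 3 or more T cell markers. Without the cells that held markers of another type each cathepsin kept its call and direction against ATV:RSV, and without the cells with Mki67 or Top2a the calls of Ctsl, Ctsh and Ctso at day 1 were lost and Ctsa was called. The part of the other values in the differences below was not tested. In total, 2579 cells shared their 16-base barcode with a cell of another mouse.

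The promoters of 3 cathepsins that rose at day 1 (Ctsz, Ctsc, Ctsd) and of 2 that fell (Ctss, Ctsf) are shown, so that genes that moved together can be compared with genes that moved apart. The windows are RefSeq promoters of GRCm38.p6, read 5′ to 3′ from 250 bases before to 50 bases after the start. They cover chr2:174438990-174439289 (minus strand) for Ctsz, chr7:88277835-88278134 (plus) for Ctsc, chr7:142387778-142388077 (minus) for Ctsd, chr3:95526536-95526835 (plus) for Ctss and chr19:4854915-4855214 (plus) for Ctsf. Capitals mark matches, on either strand, to the E-box CACGTG, the longer TCACGTGA that contains it and is the core of the lysosomal CLEAR element, the PU.1 motif GAGGAAGT, the IRF motif AANNGAAA, the AP-1 motif TGANTCA and the GC box GGGCGG.
Ctsz: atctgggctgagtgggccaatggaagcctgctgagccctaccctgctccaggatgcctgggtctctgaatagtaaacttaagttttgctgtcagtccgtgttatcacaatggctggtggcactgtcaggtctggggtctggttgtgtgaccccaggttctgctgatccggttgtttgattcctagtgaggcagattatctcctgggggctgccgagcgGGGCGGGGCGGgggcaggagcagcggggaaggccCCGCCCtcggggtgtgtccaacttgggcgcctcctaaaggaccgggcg
Ctsc: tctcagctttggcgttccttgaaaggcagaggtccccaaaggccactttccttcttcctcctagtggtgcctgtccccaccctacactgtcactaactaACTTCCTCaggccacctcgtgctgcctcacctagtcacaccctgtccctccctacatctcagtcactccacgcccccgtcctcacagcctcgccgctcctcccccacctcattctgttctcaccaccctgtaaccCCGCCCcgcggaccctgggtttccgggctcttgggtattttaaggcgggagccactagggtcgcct
Ctsd: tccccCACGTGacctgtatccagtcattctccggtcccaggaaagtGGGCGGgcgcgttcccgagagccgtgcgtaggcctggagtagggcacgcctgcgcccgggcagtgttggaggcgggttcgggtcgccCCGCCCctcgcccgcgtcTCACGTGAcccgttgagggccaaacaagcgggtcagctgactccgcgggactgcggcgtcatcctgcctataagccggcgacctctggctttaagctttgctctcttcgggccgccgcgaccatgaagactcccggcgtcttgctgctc
Ctss: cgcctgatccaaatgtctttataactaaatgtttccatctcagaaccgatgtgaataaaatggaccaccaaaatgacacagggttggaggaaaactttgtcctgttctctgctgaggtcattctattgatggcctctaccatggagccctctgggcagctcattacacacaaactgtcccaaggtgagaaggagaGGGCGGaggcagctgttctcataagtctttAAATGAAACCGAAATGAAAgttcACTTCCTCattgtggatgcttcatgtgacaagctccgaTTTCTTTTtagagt
Ctsf: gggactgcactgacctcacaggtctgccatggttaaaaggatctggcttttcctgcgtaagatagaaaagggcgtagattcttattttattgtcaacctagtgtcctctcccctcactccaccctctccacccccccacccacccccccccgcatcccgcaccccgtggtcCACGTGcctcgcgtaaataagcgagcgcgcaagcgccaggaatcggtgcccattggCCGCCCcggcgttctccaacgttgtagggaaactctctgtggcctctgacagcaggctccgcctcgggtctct
Ctsb and Ctsh had no entry among the promoters, so their motifs were not read. Among 9 promoters listed for 8 members (Ctsa has 2), the E-box occurred in Ctsa, Ctsd, Ctsf and Ctsl and in 7.15% of all 32851 promoters. TCACGTGA occurred in Ctsa and Ctsd, against 0.974% of all. Of the 4 genes with an E-box, Ctsd was called higher at day 1, Ctsf and Ctsl lower, and Ctsa was not called. These are the calls of the main test described below, and those of Ctsd and Ctsa changed with the scaling. Whether these motifs had a part in the changes was not tested. GAGGAAGT was found in Ctsc and Ctss (3.20% of all), 1 of which rose and 1 of which fell. AANNGAAA was found in Ctsl, Ctso and Ctss (23.9%), and GGGCGG in Ctsc, Ctsd, Ctsf, Ctso, Ctss and Ctsz (35.7%). TGANTCA was in none of the 9 windows and in 7.81% of all. In Ctss the IRF matches lay between 25 and 7 bases before the start, next to the PU.1 match at the start itself, with a further IRF match after it. These matches describe the letters only.

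At day 1 of ATV:4D9 the cathepsins moved in both directions. Ctsz, Ctsc, Ctsb and Ctsd rose, Ctsf, Ctss, Ctsl, Ctsh and Ctso fell, and Ctsa did not pass the test. Counts were summed per mouse and tested with limma-voom over all genes, and a gene was called where its p, adjusted by Benjamini-Hochberg, was below 0.05. By that test 9 of 10 cathepsins were called, where 69.2% of all genes were called. The 4 that rose and the 5 that fell stand beside 34.7% of all genes for higher calls and 34.6% for lower ones. The split over all genes moved with the scaling, from 4942 higher and 4930 lower with TMM to 3690 and 6959 with library size alone and 3544 and 6344 with the mean of CPM per cell. The median log2 fold change was -0.039 over the 10 cathepsins and -0.046 over all genes tested.

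**Figure D1:**
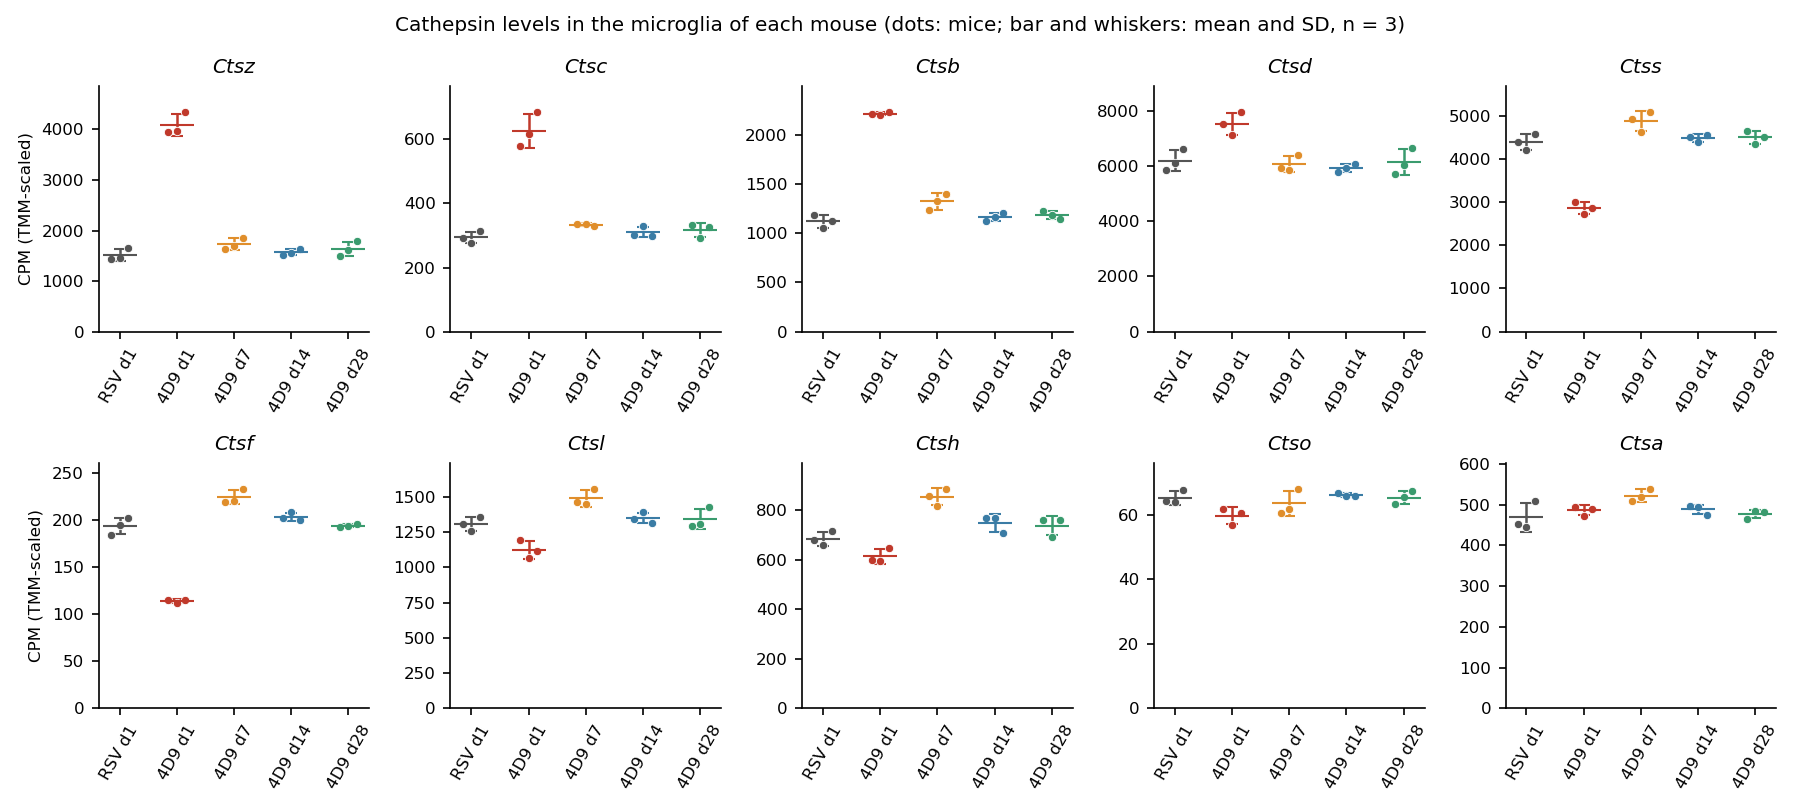
Level of each cathepsin in each mouse, in TMM-scaled CPM on axes that start at 0, with RSV for ATV:RSV, 4D9 for ATV:4D9 and d for day. Dots are mice, bars and whiskers are the mean and SD of 3 mice, and the day 1 ATV:4D9 mice lie apart from ATV:RSV in every panel but that of Ctsa.

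Ctsz encodes cathepsin Z, a carboxypeptidase that takes residues singly from the end of a protein. It stood at 1442, 1458 and 1659 CPM (TMM-scaled) in the 3 ATV:RSV mice and at 3948, 3961 and 4335 in the 3 ATV:4D9 mice at day 1. The lowest treated mouse was thus far above the highest control, and the rise was 2.69-fold (log2 fold change 1.43 with SE 0.0697, and adjusted p = 5.46e-11 by limma-voom). Batches 1, 2 and 3 taken alone gave log2 differences of 1.45, 1.44 and 1.39. At day 7 Ctsz was at 1642 to 1862 CPM, at day 14 at 1522 to 1632 and at day 28 at 1503 to 1786, ranges that overlapped those of the controls.

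Ctsc encodes the dipeptidyl peptidase that activates granule serine proteases in other leukocytes. It measured 292, 277 and 313 CPM in ATV:RSV and 577, 615 and 683 CPM at day 1 (2.12-fold, log2 fold change 1.09 with SE 0.0673, and adjusted p = 8.29e-10 by limma-voom). Ctsb, a cysteine protease that acts as an endopeptidase and as a dipeptidase from the protein's end, measured 1182, 1050 and 1126 CPM in ATV:RSV and 2209, 2198 and 2228 CPM at day 1. The rise of Ctsb was 1.98-fold (log2 fold change 0.98, SE 0.0525, adjusted p = 1.45e-10). Neither gene's groups overlapped, and the 3 treated mice were closer to each other for Ctsb (CV 0.671%) than for Ctsc (CV 8.59%).

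Ctsd, the aspartic protease, rose less. It measured 5865, 6112 and 6606 CPM in ATV:RSV and 7512, 7122 and 7943 CPM at day 1, a 1.22-fold difference (log2 fold change 0.28 with SE 0.0607, and adjusted p = 0.000669 by limma-voom). The groups did not overlap on this scale, but the call for Ctsd depended on the scaling. With library size alone in place of TMM the median of all genes shifted to -0.29, and Ctsd had a log2 fold change of 0.04 (adjusted p = 0.544). With the mean of CPM per cell it had 0.015 (adjusted p = 0.852).

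Among the cathepsins that fell, Ctss encodes an endopeptidase that remains active at neutral pH. Its level was 4379, 4193 and 4569 CPM in ATV:RSV and 2991, 2724 and 2854 CPM at day 1 (0.652-fold, log2 fold change -0.62 with SE 0.0484, and adjusted p = 1.36e-08 by limma-voom). Ctsf, a cysteine protease with an unusually long propeptide, went from 185, 196 and 202 CPM to 115, 112 and 116 CPM (0.59-fold, log2 fold change -0.76, SE 0.0427, adjusted p = 2.58e-10). For both genes each treated mouse was below each control mouse, which also makes the difference negative in all 3 batches.

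Smaller decreases were called for Ctsl, Ctsh and Ctso. Ctsl, a broad endopeptidase, measured 1306, 1260 and 1358 CPM in ATV:RSV and 1194, 1066 and 1117 CPM at day 1 (log2 fold change -0.22, limma-voom adjusted p = 0.00173). Ctsh, an aminopeptidase, measured 678, 660 and 716 CPM against 599, 593 and 649 CPM (log2 fold change -0.16, adjusted p = 0.0181). Ctso, a widely expressed cysteine protease, measured 64.3, 64.0 and 67.7 CPM against 61.8, 56.8 and 60.6 CPM (log2 fold change -0.13, adjusted p = 0.0338). In each of the 3 the groups did not overlap, and for Ctsh the gap between them was narrower than the SD of either group. Without cells holding a UMI of Mki67 or Top2a these calls were lost, at log2 fold changes of -0.11 for Ctsl (adjusted p = 0.0719), -0.12 for Ctsh (0.0757) and -0.080 for Ctso (0.171). With a mouse left out Ctsh kept much of its size but not its call, at -0.13 without replicate 1 of ATV:4D9 day 1 (adjusted p = 0.0709), replicate 2 of that group (0.0798) or ATV:RSV replicate 3 (0.0798). Ctso was at -0.089 (adjusted p = 0.164) and -0.10 (0.122) without the latter pair of mice. With thinned cells Ctsh was at -0.14 (adjusted p = 0.0500053) and Ctso at -0.14 (0.0697). Ctso was also not called by DESeq2 (-0.11, adjusted p = 0.0819), with RLE scaling (-0.11, 0.0743) or without the filter on low counts (-0.10, 0.136).

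Ctsa, the serine carboxypeptidase, was at 452, 446 and 510 CPM in ATV:RSV and 495, 472 and 490 CPM at day 1, groups that overlapped (log2 fold change 0.05 with SE 0.0498, and adjusted p = 0.357 by limma-voom). Its direction depended on the scaling. It was lower with library size alone (log2 fold change -0.19, adjusted p = 0.00275), a scaling that shifts all genes alike and put their median at -0.29, and with the mean of CPM per cell (-0.20, adjusted p = 0.00185), and higher without the cells holding Mki67 or Top2a (0.12, adjusted p = 0.0438) or without ATV:RSV replicate 3 (0.11, adjusted p = 0.0353).

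**Figure D2:**
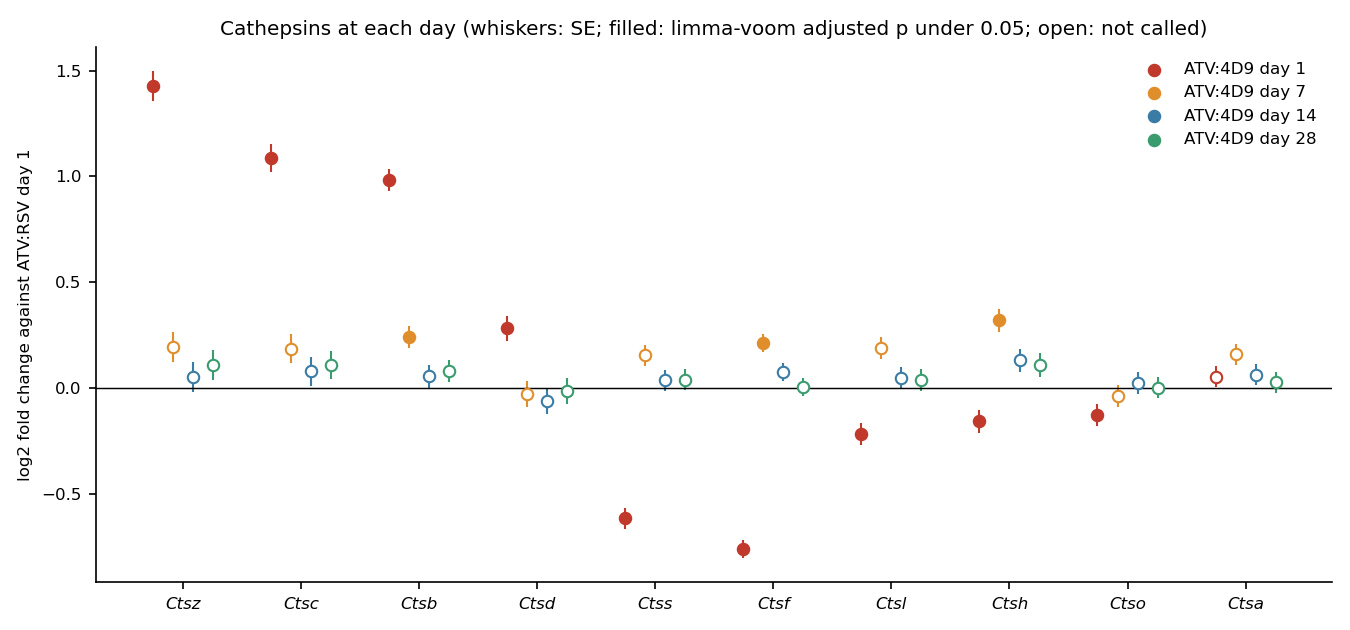
Log2 fold change of each cathepsin against ATV:RSV at day 1, 7, 14 and 28 of ATV:4D9, with SE as whiskers, filled where limma-voom called the gene and open where it did not. Values run from -0.76 (Ctsf) to 1.43 (Ctsz) at day 1 and from -0.037 (Ctso) to 0.32 (Ctsh) at day 7, and all points of day 14 and day 28 are open.

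The mean summed share of the transcriptome held by the cathepsins differed from that in ATV:RSV by less than the SD of the ATV:RSV mice. Its makeup shifted at day 1. The 10 genes together took 1.72% ± 0.081 of UMIs in ATV:RSV and 1.76% ± 0.048 at day 1, with 1.73%, 1.66% and 1.73% at days 7, 14 and 28 (means, n = 3). Within batches 1, 2 and 3 the day 14 share was the lower one (1.61%, 1.66% and 1.72% against 1.67%, 1.67% and 1.81% in ATV:RSV). The day 7 share was slightly the higher one in each batch (1.69%, 1.68% and 1.82%). At days 1 and 28 the direction was not the same in all batches. Of these cathepsin UMIs, Ctsz held 9.36% ± 0.3 in ATV:RSV and 20.7% ± 0.6 at day 1, and Ctsb 6.90% ± 0.482 and 11.2% ± 0.37. Ctss held 27.0% ± 0.552 in ATV:RSV and 14.5% ± 0.629 at day 1. The share of Ctsd was 38.2% in both groups (SD 1.00 and 0.576). By day 7 the shares of Ctsz and Ctss were 9.92% and 27.9%. These shares are descriptions over the listed genes and were not tested.

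Counted per cell rather than as a share of UMIs, most cathepsins were higher at day 1, when cells also held more UMIs in total. A cell held on average 165 ± 10.2 UMIs of the 10 genes at day 1 and 106 ± 8.45 in ATV:RSV. In 7 of the 10 all treated mice lay above all controls: Ctsz (34.0 against 9.89 UMIs per cell, 3.44-fold), Ctsc (2.72-fold), Ctsb (2.53-fold), Ctsd (62.8 against 40.3, 1.56-fold), Ctsa (1.33-fold), Ctso (1.17-fold) and Ctsh (1.15-fold). Ctsf lay below all controls in all 3 treated mice (0.956 against 1.26 UMIs per cell, 0.757-fold). Ctss (23.9 against 28.5 UMIs per cell, 0.838-fold) overlapped between groups but was lower within each batch (0.877-fold, 0.888-fold and 0.754-fold in batches 1, 2 and 3). Ctsl (9.42 against 8.52, 1.11-fold) overlapped, with 1.17-fold, 1.16-fold and 0.993-fold within batches. Of all genes tested, 64.1% did not overlap on this measure, 49.4% higher and 14.7% lower. The decreases of Ctsh, Ctso and Ctsl were thus decreases in the share of UMIs, while their mean UMIs per cell were higher. How much of the gain per cell comes from depth of sequencing was not tested. Values at equal depth are given next. Equal depth removes differences in sequencing and in RNA content alike, so these values cannot tell the 2 apart.

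**Figure D3:**
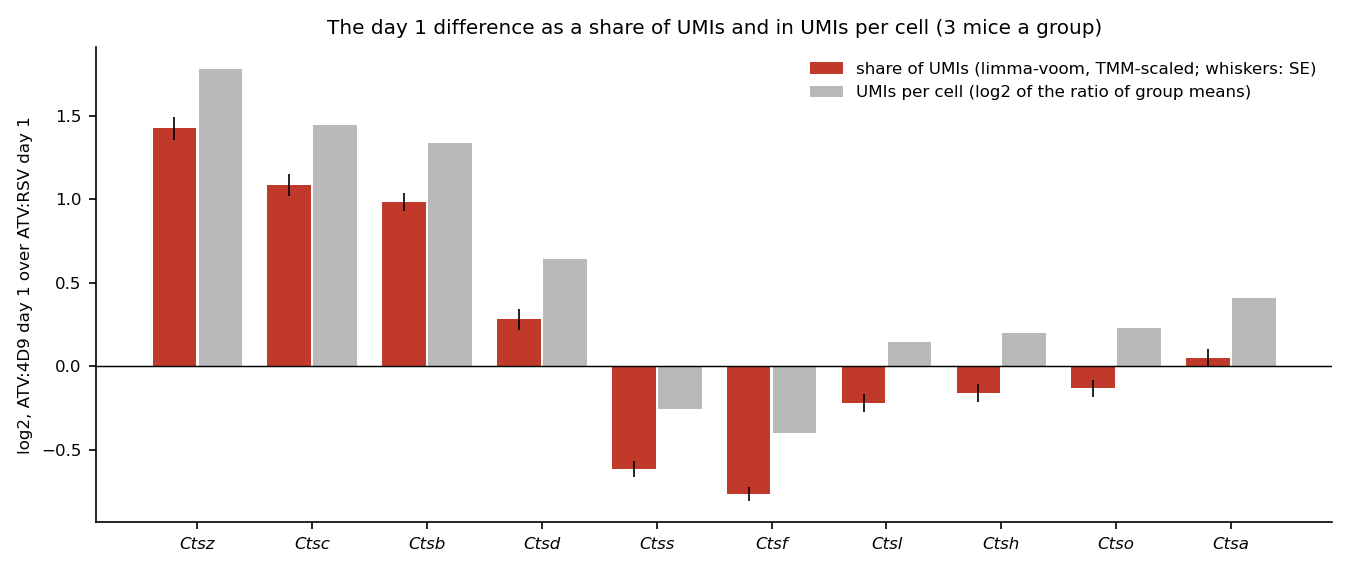
Day 1 difference of each cathepsin in TMM-scaled CPM (red, labelled share of UMIs, limma-voom log2 fold change with SE) and in UMIs per cell (grey, log2 of the ratio of group means), with 3 mice a group. Both bars come from the same counts, and the grey bar lies above the red one for all 10 genes. The gap between them holds both the UMIs per cell and the TMM scaling. With library size alone, the plain share of UMIs, Ctsd was at 0.04 and Ctsa at -0.19. For Ctsl, Ctsh and Ctso the grey bar points upward (1.11-fold, 1.15-fold and 1.17-fold) where the red one points downward.

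When each cell was thinned to 3385 UMIs, which left out 10204 shallower cells (3.93% to 17.8% of a mouse's cells), the opposed moves of Ctsz and Ctss were seen within the typical cell. The mean count of Ctsz was 5.46 ± 0.438 UMIs per thinned cell in ATV:RSV and 12.2 ± 0.419 at day 1, and the median cell held 5 to 6 and 11 to 12. Ctss went from 15.7 ± 0.666 to 9.07 ± 0.455 UMIs per thinned cell, with the median cell at 15 to 16 and then 8 to 9. The mean of Ctsb was 4.00 ± 0.243 in ATV:RSV and 6.60 ± 0.0662 at day 1. Ctsd, at 22.4 ± 1.40 and 23.1 ± 1.01 UMIs per thinned cell, differed by less than its spread between mice. Ctsc was higher at day 1 (1.85 against 1.05). Ctsa (1.49 against 1.70), Ctsh (1.94 against 2.47), Ctso (0.187 against 0.236), Ctsl (3.57 against 4.68) and Ctsf (0.379 against 0.702) were lower, with no overlap. How many of all genes did not overlap on this measure was not counted. The limma-voom fit on thinned cells called 8556 of 13026 genes at day 1. Before thinning, the means of Ctsa, Ctsh, Ctso and Ctsl per cell were higher at day 1. Across thinned cells of a mouse, log counts were correlated for the 28 pairs of the 8 cathepsins other than the sparser Ctsf and Ctso. By the median over 15 mice the highest pair was Ctsd and Ctsz (median r = 0.27, range 0.218 to 0.339). Ctsb and Ctsd (0.227, range 0.180 to 0.371) and Ctsb and Ctsz (0.198, range 0.173 to 0.407) followed, and each reached a higher value in a single mouse. Cells of 1 mouse share a library, and these coefficients are descriptions of sparse counts.

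The authors placed the cells in clusters 0, 1 and 2, and the day 1 mice filled a different one from the rest. Cluster 2 held 5607 to 6597 cells of each ATV:4D9 day 1 mouse and 74 to 245 cells of each other mouse, whereas clusters 0 and 1 held 211 to 383 and 180 to 555 cells of the day 1 mice. Clusters were built from the expression of these cells. The sources used here do not say which genes entered, and the cathepsins may have been among them, so the values by cluster are given without a test.

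Within clusters 0 and 1, 5 of 10 cathepsins had groups that did not overlap between ATV:4D9 day 1 and ATV:RSV, and they were the same 5 in both clusters: Ctsz, Ctsc, Ctsb and Ctsl were higher and Ctss was lower. Of all genes tested, 28.8% did not overlap in cluster 0 (9.9% higher, 18.8% lower) and 27.5% in cluster 1 (12.2% higher, 15.4% lower). Ctsz was at 2137 ± 138 CPM at day 1 and 1491 ± 116 in ATV:RSV in cluster 0, and at 2941 ± 36.5 and 1795 ± 132 in cluster 1. Ctss was at 3485 ± 51.1 against 4581 ± 185 in cluster 0 and at 3624 ± 114 against 4768 ± 210 in cluster 1. The rise of Ctsz and the fall of Ctss were thus seen also in the UMIs counted in cells placed outside cluster 2. How many of these UMIs came from other cells of the library was not measured.

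In clusters 0 and 1 Ctsl went the other way than in the sum over all cells, and in cluster 2 the same way. In the former it was at 1567 ± 102 and 1628 ± 86.1 CPM at day 1 against 1354 ± 51.6 and 1445 ± 45.0 in ATV:RSV. In cluster 2 it was at 978 ± 53.8 CPM at day 1, below the 1518 ± 243 of the few ATV:RSV cells there. Ctsf in cluster 2 was at 97.9 ± 1.13 CPM at day 1 against 145 ± 21.1, and overlapped between groups in clusters 0 and 1. Ctsb in cluster 2 was at 2007 ± 33.6 CPM at day 1 and 1980 ± 217 in ATV:RSV, a like level in both groups. Other cathepsins differed there with no overlap. Ctsz (3711 against 2642 CPM) and Ctsc (567 against 418) were higher at day 1, and Ctss (2507 against 4433) and Ctsh (539 against 748) lower. Ctsa, Ctsd and Ctso overlapped in cluster 2. How many of all genes did not overlap in cluster 2 was not counted, and each ATV:RSV mouse had only 76 to 165 cells there.

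**Figure D4:**
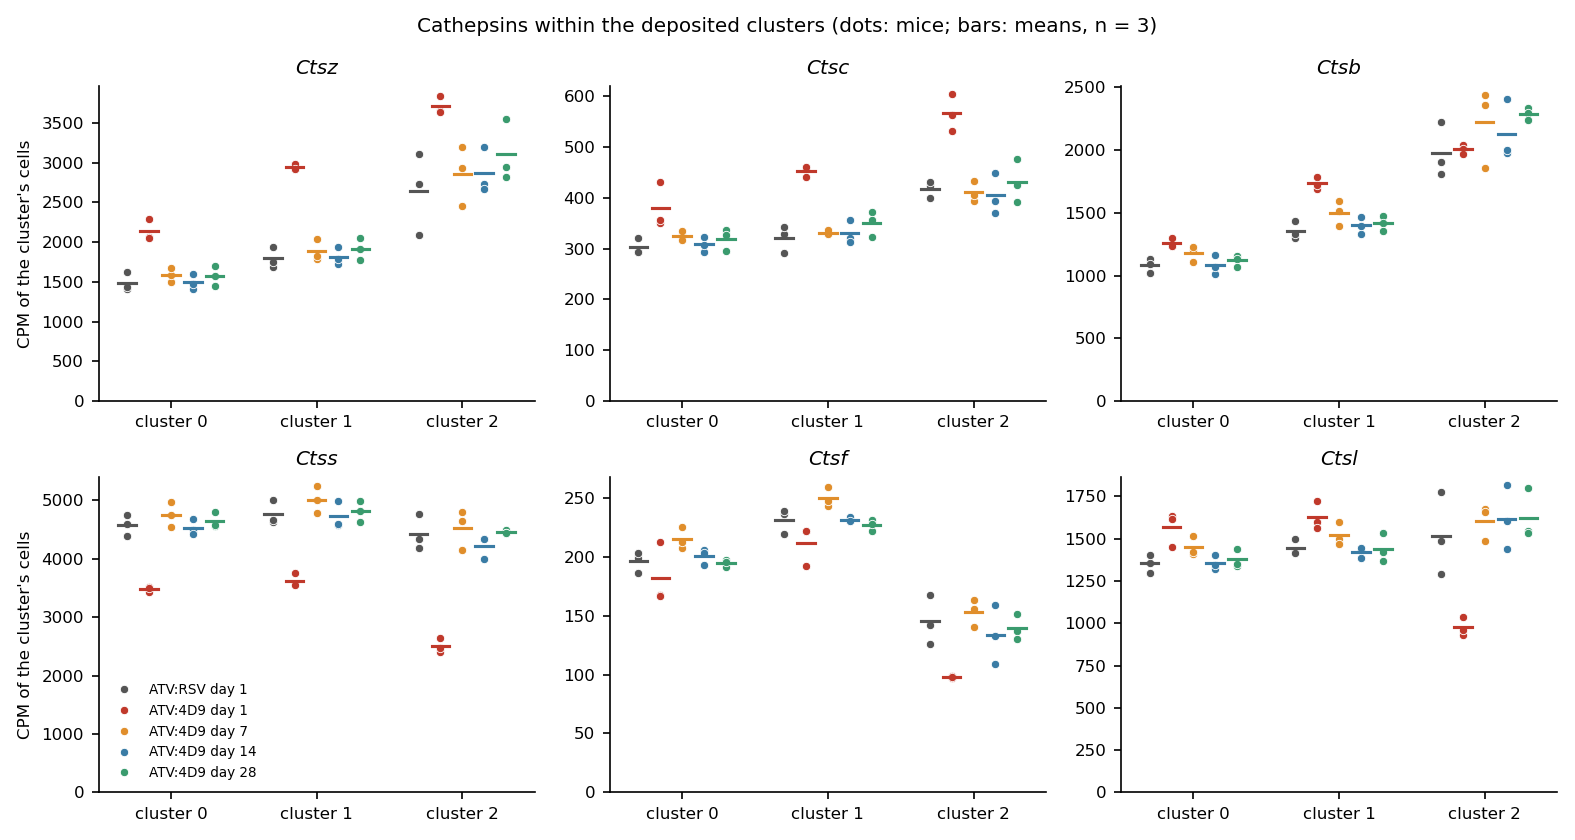
Level of 6 cathepsins in the cells of each deposited cluster, in CPM of the cluster's summed cells (axes start at 0), with a dot for each mouse and a bar for the mean of 3 mice. In clusters 0 and 1 the day 1 ATV:4D9 dots (red) lie above ATV:RSV (grey) for Ctsz, Ctsc, Ctsb and Ctsl and below for Ctss, and in cluster 2 Ctsl is at 978 CPM at day 1 and 1518 in ATV:RSV.

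By day 7 the large changes were gone, and a set of small increases was measured. Ctsh, Ctsb and Ctsf were called higher and none was called lower, 3 of 10 where 3.98% of all genes were called, 2.99% higher and 0.996% lower. The balance over all genes turned with the scaling, from 426 higher and 142 lower calls with TMM to 317 and 882 with library size alone and 319 and 894 with the mean of CPM per cell. Ctsh rose 1.25-fold, from 678, 660 and 716 CPM in ATV:RSV to 858, 818 and 887 CPM (log2 fold change 0.32 with SE 0.055, and adjusted p = 0.00245 by limma-voom). Ctsf rose 1.16-fold to 220, 221 and 234 CPM (log2 fold change 0.21, SE 0.0424, adjusted p = 0.00778), and Ctsb 1.18-fold to 1238, 1329 and 1402 CPM (log2 fold change 0.24, SE 0.053, adjusted p = 0.0155). All treated mice were above all controls for these genes. Ctsh was called under every alternative run. Ctsf was not called with library size alone (log2 fold change 0.12, adjusted p = 0.0991), with the mean of CPM per cell (0.11, 0.117) or without ATV:4D9 day 7 replicate 3 (0.18, 0.0551), a mouse without which 1 cathepsin was called. Ctsb was not called under the same alternatives (0.15, adjusted p = 0.115, then 0.13, 0.173, and 0.20, 0.103). Its call was also lost, at a like size, without ATV:4D9 day 7 replicate 2 (0.24, adjusted p = 0.0564) or ATV:RSV replicate 2 (0.20, 0.0892). Mitochondrial genes took a median of 3.49% to 4.04% of a cell's UMIs at day 7 and 3.11% to 3.38% in ATV:RSV. Summed microglia markers took 21075 to 21489 CPM at day 7 and 22943 to 24358 in ATV:RSV. Border macrophage, endothelial and neuron sums were also lower, and the neutrophil sum reached 157 CPM in 1 day 7 mouse. The part of these values in the day 7 differences was not tested.

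For other members the call at day 7 changed with the batch term. With the batch number as a replicate block 6 cathepsins were called, where that fit called 7.11% of all genes, adding Ctsl (log2 fold change 0.19, adjusted p = 0.0288, 0.0592 without the block), Ctss (0.15, adjusted p = 0.0132 against 0.0992) and Ctsz (0.19, adjusted p = 0.0039 against 0.164). Within batches 1, 2 and 3 the log2 difference was 0.16, 0.20 and 0.20 for Ctsl, 0.17, 0.14 and 0.15 for Ctss, and 0.19, 0.22 and 0.17 for Ctsz. DESeq2, which called 6.11% of all genes, also called 6, with Ctsa in place of Ctsz. Ctsl was called at a like size with thinned cells (0.20, adjusted p = 0.0496), without cells with Mki67 or Top2a (0.19, 0.0484), without ATV:4D9 day 1 replicate 1 (0.19, 0.0456) and without ATV:4D9 day 28 replicate 3 (0.19, 0.0466). Ctsa was called without ATV:RSV replicate 3 (0.22, adjusted p = 0.0129). Ctsc was above all controls at day 7 (330 to 336 against 277 to 313 CPM) but was not called, also under every alternative. Ctsd (log2 fold change -0.030, limma-voom adjusted p = 0.864) and Ctso (-0.037, adjusted p = 0.782) overlapped the controls.

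Ctsf, Ctsh, Ctss and Ctsl lay on opposite sides of ATV:RSV at the 2 times. On the TMM scale all mice of day 1 were below all controls for each of them and all mice of day 7 above. The lowest mean of the 5 groups was at day 1 and the highest at day 7 (2857 and 4869 CPM for Ctss, 1126 and 1490 CPM for Ctsl). With library size alone Ctss overlapped at day 7, at 4822, 4596 and 5048 CPM against 4613, 4459 and 4831 in ATV:RSV. In UMIs per cell Ctsh lay above the controls at day 1, as given above. On the TMM scale 2.48% of all genes had their mice below the controls at day 1 and above them at day 7. The day 7 side was called for Ctsf and Ctsh. For Ctss and Ctsl it was not called by limma-voom without the block (adjusted p = 0.0992 and 0.0592). Of 25 alternatives 2 called it for Ctss (the block and DESeq2) and 6 for Ctsl (these and the further ones given above). Over the alternatives the day 7 log2 fold change went down to 0.056 for Ctss and 0.083 for Ctsl. Between day 1 and day 7 of ATV:4D9, 8 of 10 cathepsins were called (66.9% of all genes, 33% higher and 33.9% lower at day 7). Ctsf (log2 fold change 0.98), Ctss (0.77), Ctsh (0.48) and Ctsl (0.41) were higher at day 7, and Ctsz (-1.23), Ctsc (-0.90), Ctsb (-0.74) and Ctsd (-0.31) were lower. Ctsa (0.10, limma-voom adjusted p = 0.0748) and Ctso (0.09, adjusted p = 0.125) were not called. With library size alone both were called (0.25, adjusted p = 0.000296 for Ctsa, and 0.24, 0.000774 for Ctso), as they were with the mean of CPM per cell (0.24, 0.000419, and 0.23, 0.000823). Ctsa was also called with thinned cells (0.15, adjusted p = 0.0259) and without ATV:RSV replicate 3 (0.11, 0.0298), and Ctsd was not called with the mean of CPM per cell (-0.16, 0.0619).

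No cathepsin was called at day 14 or day 28, where limma-voom called 0.4% and 0% of all genes, and the count was also 0 with edgeR, DESeq2 and every other alternative. At an unadjusted p under 0.05, 1 of 10 passed at day 14, namely Ctsh (708 to 771 CPM, log2 fold change 0.13, SE 0.055), and 0 at day 28, where 5.4% and 4% of all genes passed. The log2 fold changes of the 10 genes lay between -0.064 (Ctsd) and 0.13 (Ctsh) at day 14 and between -0.015 (Ctsd) and 0.11 (Ctsc) at day 28. Over all 5 groups a moderated F test called 8 of 10, beside 66.5% of all genes, leaving Ctsa (adjusted p = 0.0844) and Ctso (adjusted p = 0.0904).

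Listed genes that act with the cathepsins were called in both directions at day 1, a day at which 69.2% of all genes were called, 34.7% higher and 34.6% lower. Of 20 listed inhibitors 8 were measured well enough to test and 6 were called, 4 higher and 2 lower, a share near that of all genes, with a median log2 fold change of 0.61 against -0.046 over all genes. Serpinb6a and Serpinb6b were not called. Cst7, cystatin F, which enters lysosomes and holds cathepsins such as C in check, was at 12.8, 12.7 and 12.3 CPM in ATV:RSV and at 276, 271 and 294 CPM at day 1 (log2 fold change 4.48 with SE 0.0758, and adjusted p = 2.65e-15 by limma-voom). Cst3, the secreted cystatin C, was at 54678, 52709 and 57024 CPM in ATV:RSV and at 37651, 32603 and 34164 CPM at day 1 (log2 fold change -0.66, adjusted p = 3.93e-08). Cst7 and Cst3 were named as the highest and lowest called of the list, so their opposite directions follow from the choice. Cstb, Ctla2a and Ctla2b were also called higher and Serpinb9 lower. At day 7 Cst7 was still higher, at 29.1, 24.8 and 25.6 CPM (log2 fold change 1.07, adjusted p = 1.49e-06), and it was not called later. Other inhibitors were called at day 7 under some alternatives only. These were Cstb by DESeq2, with the replicate block and without ATV:4D9 day 7 replicate 1, and Ctla2b with the block. Cst3 was called with library size alone and Serpinb9 with the mean of CPM per cell.

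All 13 genes of maturation and delivery were tested, and 8 rose, 4 fell and Scarb2 was not called at day 1 (median log2 fold change 0.26), beside 34.7% and 34.6% of all genes. The highest value was that of Igf2r, the large mannose 6-phosphate receptor, which rests on 2, 5 and 9 UMIs in ATV:RSV and 82, 75 and 58 UMIs at day 1 (log2 fold change 3.49 with SE 0.442, and adjusted p = 3.46e-06 by limma-voom). The lowest was that of Sort1, sortilin, a sorting receptor, at a mean of 63.7 CPM in ATV:RSV and 36.0 CPM at day 1 (log2 fold change -0.82, adjusted p = 3.35e-09). Grn, progranulin, which promotes cathepsin D activity, rose at day 1 (log2 fold change 0.58, adjusted p = 4.65e-09) and at day 7 (0.17, adjusted p = 0.0288). The day 7 call of Grn was lost with library size alone (0.078, adjusted p = 0.226), with the mean of CPM per cell (0.052, 0.450), with thinned cells (0.15, 0.0962), without replicate 1, 2 or 3 of ATV:4D9 day 7 (0.17, 0.18 and 0.17, with adjusted p = 0.0798, 0.073 and 0.101) and without ATV:RSV replicate 2 (0.13, 0.144).

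All 5 listed transcription factors of lysosomal genes passed the test at day 1, with 1 rising and 4 falling (median log2 fold change -0.68), where 69.2% of all genes passed. Mitf, a relative of Tfeb, was at 0.512 of its ATV:RSV mean of 29.2 CPM (log2 fold change -0.96, limma-voom adjusted p = 5.62e-08), while Tfec, at 21, 11 and 27 UMIs in ATV:RSV and 55, 55 and 31 at day 1, was higher (0.93, adjusted p = 0.00829). Of 6 class II genes tested 5 rose, H2-DMa was not called and none fell (median log2 fold change 0.96, with 34.7% of all genes higher), from Cd74, the invariant chain that cathepsin S trims (35.9 to 231 CPM, log2 fold change 2.69, adjusted p = 7.01e-11), to H2-DMb1, a chain of the peptide exchanger (0.51, adjusted p = 4.30e-07). Cd74 thus rose in the mice in which Ctss fell. Of 13 other cathepsin genes 2 were tested, and Ctsw, known from lymphocytes, was higher with 14 to 27 UMIs per mouse in ATV:RSV and 35 to 48 at day 1 (0.57, adjusted p = 0.0348). No gene of these lists was called at day 14 or day 28 by limma-voom, edgeR or DESeq2, with 1 of 34 at an unadjusted p under 0.05 at day 14 and 0 at day 28, beside 5.4% and 4% of all genes.

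**Figure D5:**
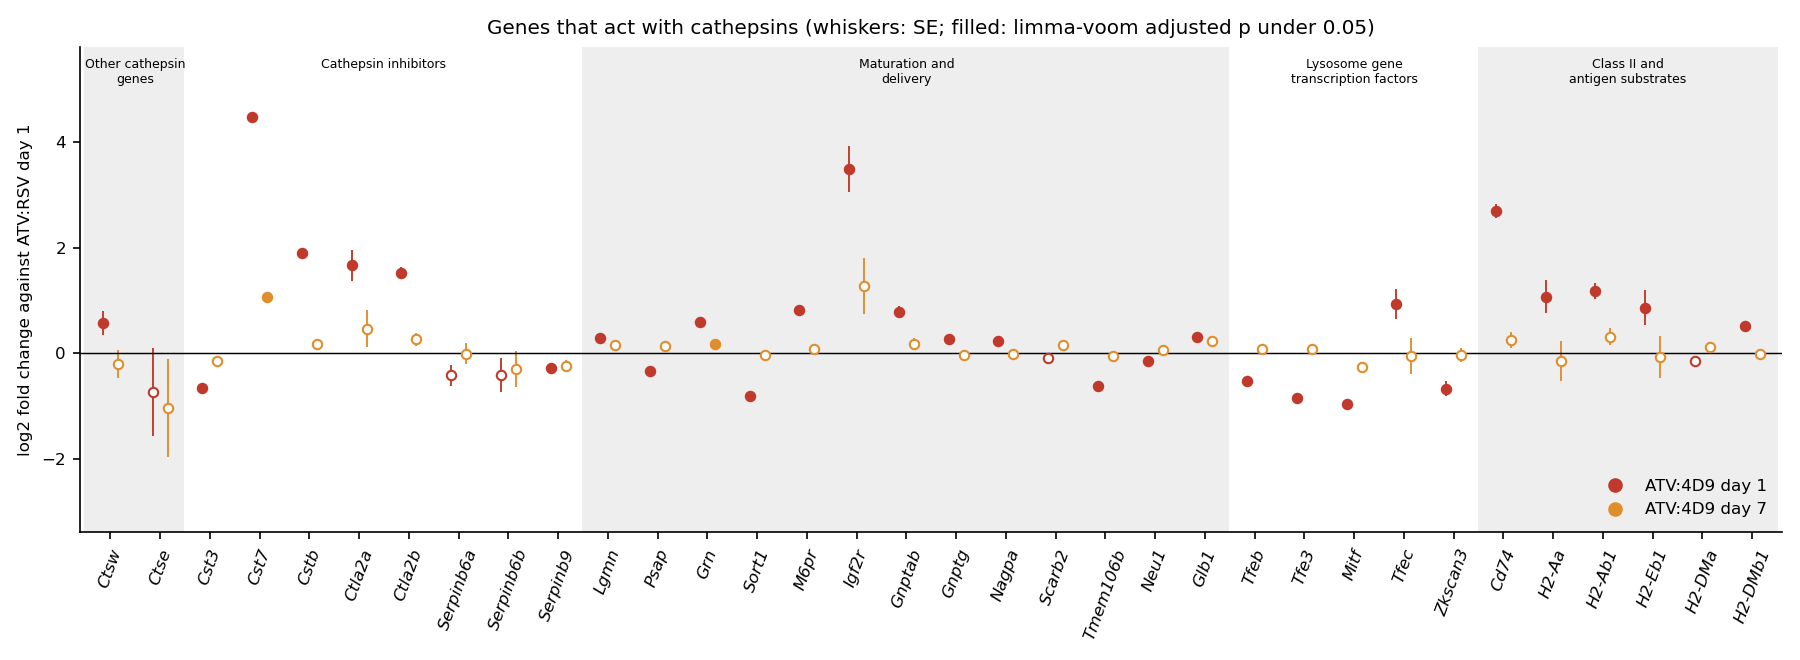
Log2 fold change against ATV:RSV at day 1 (red) and day 7 (orange) for the genes of 5 lists that act with cathepsins, with SE as whiskers and filled symbols where limma-voom called the gene. Day 1 values run up to 4.48 (Cst7), and at day 7 only Cst7 (1.07) and Grn (0.17) are filled.

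Each cathepsin was also set beside the gene whose log2 CPM over the 15 mice was most like its own. For Ctsz this was Gusb, the lysosomal enzyme beta-glucuronidase (Pearson r = 0.997), and for both Ctsf (0.996) and Ctss (0.99) it was Trf, transferrin. The nearest genes were Tor3a for Ctsb (0.993), Arpc1b for Ctsc (0.991), Itm2b for Ctsl (0.983), Qsox2 for Ctsd (0.973), Mboat7 for Ctsh (0.948), Pgrmc1 for Ctso (0.908) and Sdf4 for Ctsa (0.828). Over the 12 mice other than those of day 1, an alternative chosen after seeing the data, the same pairs had r from 0.767 (Ctsc and Arpc1b) to 0.958 (Ctsl and Itm2b). With r above 0.9 over all 15 mice there were 2691 of 12244 genes for Ctsz, 41 for Ctsl and 0 for Ctsa. These values are descriptions over mice that share the group structure.

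In mm10 (GENCODE M21) all 10 are protein-coding genes: Ctsz at chr2:174427493-174439039, Ctsa at chr2:164832873-164841032, Ctss at chr3:95526786-95556403, Ctso at chr3:81932601-81956725, Ctsc at chr7:88278085-88310888, Ctsd at chr7:142375911-142388038, Ctsh at chr9:90054152-90076089, Ctsl at chr13:64359337-64370890, Ctsb at chr14:63122462-63145923 and Ctsf at chr19:4855130-4860918. The kit samples the 3′ end of transcripts most. A measured gene on the opposite strand overlaps Ctsz (Nelfcd), Ctsb (Fdft1), Ctsl (Gm47123) and Ctsa (Neurl2 and Pltp), and its UMIs came to at most 2.44% of those of the cathepsin. On the same strand lie Gm49369 at Ctsd and the processed pseudogenes Gm49230 at Ctsl and Hmgb1-ps5 at Ctss, which were not analysed here, so reads shared with them cannot be told apart.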

How the data were processed

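Cells of 15 mice were enriched with CD45 beads and sequenced with a droplet 3′ kit. The authors mapped reads to mm10 with Cell Ranger (version 4.0.0 per the submitters' processing notes, while the study's methods name later versions, so whether reads in introns were counted is not settled) and filtered and clustered cells in Seurat. The matrix that the authors deposited holds raw UMI counts for each gene in each cell. For each cell, the deposited cell table gives UMI counts, genes, the percent of UMIs from mitochondrial genes (at most 10 here), a cluster and the animal it came from. The thresholds on cells and the treatment of doublets are not given in the sources used here, and no doublet caller was run. Matrix sums equalled the deposited UMIs in all 102043 cells. A 16th animal named in the labels was not analysed here.

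Groups and batches came from the labels. Counts were summed per mouse, filtered with filterByExpr (minimum count 10, minimum total 15), scaled by TMM and fitted with limma-voom as group means over 15 mice (limma 3.58.1, edgeR 4.0.16, R 4.3.3). The threshold for a call was 0.05 after Benjamini-Hochberg adjustment. Levels are TMM-scaled CPM, ± marks the SD over 3 mice, and levels by cluster are CPM of that cluster's UMIs. Sums of cell type markers are CPM of the library size, without TMM. In likeness, log2 CPM used a prior count of 0.5 and genes with predicted names were left out. The code was tested on simulated data.

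Alternatives were library size or RLE scaling, no filter, edgeR's quasi-likelihood test, DESeq2 1.42.0, the batch number as a replicate block, the mean of CPM per cell (log2 with a pseudocount of 1, limma-trend), cells thinned to the 10th percentile of UMIs per cell, sums without cells with 3 or more markers of another cell type or without cells with Mki67 or Top2a, and each mouse left out in turn. The labels say that each batch held all 5 conditions, so the number pairs mice. Over genes, deviations of mice of 1 batch had a mean correlation of 0.0358 (30 pairs, -0.269 to 0.272), against -0.0176 for 60 pairs of different batches.

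The members and lists were chosen with earlier results of these data known. The text names all 10 members, from each list the genes called with the highest and lowest log2 fold change at day 1 and every gene called later, and per member the gene with the highest correlation.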

Additional observations from a re-analysis of the deposited data

Results flagged for a closer look

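For 8 of 10 cathepsins the difference from ATV:RSV was not the same at day 7 as at day 1, by the limma-voom comparison of the 2 days over all genes (adjusted p from 1.87e-11 to 0.000297), a share to be read beside the 66.9% of all genes called in that comparison. The effect at day 7 minus that at day 1, in log2, was -1.23 for Ctsz, -0.90 for Ctsc, -0.74 for Ctsb and -0.31 for Ctsd, which were higher at day 1. It was 0.98 for Ctsf, 0.77 for Ctss, 0.48 for Ctsh and 0.41 for Ctsl, which were lower at day 1. The microglia marker sum (21075 to 21489 CPM at day 7, 15643 to 17408 at day 1), the UMIs per cell and the share of cells with Mki67 or Top2a moved with the same 2 groups, and their part in the differences was not tested.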

How the results depend on the processing

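Calls at day 1 of Ctsz, Ctsc, Ctsb, Ctss and Ctsf held under every alternative, and 7 to 9 cathepsins were called there. At day 7 the count of 3 became 1 with library size alone or the mean of CPM per cell, 6 with DESeq2 and 6 with the replicate block, and 1 to 4 with a mouse left out (1 without ATV:4D9 day 7 replicate 3). List genes called at day 7 (2) became 4 with DESeq2, 4 with the replicate block, 3 with library size alone (Cst3, Cst7 and Mitf), 3 with the mean of CPM per cell (Cst7, Mitf and Serpinb9), 1 with thinned cells and 1 to 4 with a mouse left out, where leaving out replicate 2 or 3 of ATV:4D9 day 7, or 2 of ATV:RSV, left 1 and leaving out the third ATV:RSV mouse gave 4. Cst7 was called in each of these and Grn was lost with library size alone, with the mean of CPM per cell, without ATV:4D9 day 7 replicate 1 (where Cst7 and Cstb were called) and where 1 gene was left. Beyond day 7 the block changed no call of a cathepsin.

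Ctsa at day 1 turned to -0.19 with library size alone and -0.20 with the mean of CPM per cell. With library size alone 34.7% of the calls at day 1 were higher, against 50.1% with TMM. Other turns of sign were in values that were not called. At day 14 they were, with library size alone, Ctsl -0.0064, Ctso -0.031, Ctss -0.018 and Ctsz -0.0022, and with the mean of CPM per cell Ctsa -0.0021, Ctsl -0.011, Ctso -0.052, Ctss -0.018 and Ctsz -0.0055. At day 28 they were, with library size alone, Ctsf -0.015 and Ctso -0.018, with the mean of CPM per cell Ctsa -0.014, Ctsf -0.032 and Ctso -0.043, without the filter Ctso -9.4e-05, with thinned cells Ctsf -0.0056, and without cells with Mki67 or Top2a Ctsf -0.00034 and Ctso -0.0025. With a mouse left out, the day 28 values ran from -0.0096 to 0.087 (Ctsa), -0.074 to 0.036 (Ctsd), -0.031 to 0.034 (Ctsf), -0.0074 to 0.065 (Ctsl) and -0.020 to 0.027 (Ctso), and Ctsd at day 7 from -0.070 to 0.018. The causes were not tested.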
